A study of Mus musculus with 33 samples.

Results

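The thrombospondin family was followed while cultures derived from mouse embryonic stem cells were directed towards tendon or fibrocartilage. Its 5 genes, Thbs1, Thbs2, Thbs3, Thbs4 and Comp, were found by symbol among the 17120 genes of the count table, and all 5 had a row. Bulk RNA-seq was available for 33 libraries in 11 groups of 3. The starting group was paraxial mesoderm (PM, D0), which the labels give as embryoid bodies and which was specified with the BMP inhibitor LDN-193189 and the Wnt agonist CHIR. The other 10 groups were monolayers grown from PM with TGFβ1, the hedgehog agonist SAG and FGF2, plus either CD1530, an agonist of retinoic acid receptor gamma given for tendon, or AGN 193109 (AGN), given for fibrocartilage, which acts on retinoic acid receptors as an inverse agonist. Each condition was collected at 5 time points, which are named by days of induction: D0.25, D0.75, D1.5, and then D2.5 and D4. All cells came from embryonic stem cell lines that carried the ScxGFP reporter, and the line behind each library is not given. The methods give the PM stage of this protocol with either AGN or all-trans retinoic acid and do not name which these libraries received. They give the ligands of the induction stage at different doses. The paper reports that all-trans retinoic acid at the PM stage almost abolished induction of the reporter, whereas AGN increased it. Here Scx was 133.1-fold higher at D4 than in PM with CD1530 and 189.9-fold higher with AGN. The ligand of the PM stage was not tested. If it was AGN, the AGN groups kept that ligand and the CD1530 groups changed it. The methods call the replicates biological but do not say whether they were separate differentiations, so p-values measure the spread between these libraries, which may in part be technical.

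Thrombospondins are secreted, calcium-binding glycoproteins that regulate how cells meet their matrix. Thbs1 and Thbs2 form trimers, carry a procollagen domain and type 1 repeats, and bind the receptors Cd36 and Cd47; Thbs1 can also activate latent TGF-beta. Thbs3, Thbs4 and Comp form pentamers and lack those domains. Thbs4 and Comp are components of tendon matrix, and Comp is also a cartilage protein that binds fibrillar collagens, type IX collagen and matrilins.

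Library totals were 17116084 to 22775275 counts, except AGN D2.5 replicate 1 at 38120841, and replicates correlated at 0.9927 to 0.9977. The 5 genes took between 0.0339% and 0.325% of a library's counts. The ligand labels were checked on retinoic acid receptor targets: at D4 Rarb stood at 56.2 CPM (counts scaled to the library size, after TMM normalization) in CD1530 and 1.12 in AGN, and Stra8 at 201 and 0.162. Of the 7 listed targets, all 7 were higher in CD1530 at D4, where 46.6% of all genes were called in either direction. The tendon regulator Scx stood at 858 ± 17.4 CPM with CD1530 and at 1223 ± 27.8 with AGN (SD, n = 3 each), whereas the cartilage genes Col2a1 and Acan were at 145 and 4.67 CPM in CD1530 and at 2497 and 215 in AGN. Scx was therefore higher in AGN than in CD1530. The paper reports Scx as strongly upregulated in both conditions, with cartilage genes much higher in AGN. By qPCR at the end of induction, it reports that CD1530 raised Mkx and left Scx and Tnmd unchanged. Here Tnmd was called lower in CD1530 (5.12 CPM against 10.4) and Mkx was not called (36.65 against 37.19). The paper also describes Scx in related tissues such as the meniscus, so Scx alone does not tell the 2 labels apart.

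The genes lie on 5 chromosomes (GRCm38, GENCODE M21). Thbs1 (ENSMUSG00000040152) is at chr2:118111876-118127133 on the plus strand, Thbs2 (ENSMUSG00000023885) at chr17:14665500-14694235 on the minus strand, Thbs3 (ENSMUSG00000028047) at chr3:89215180-89226837 on the plus strand, Thbs4 (ENSMUSG00000021702) at chr13:92751590-92794818 on the minus strand and Comp (ENSMUSG00000031849) at chr8:70373558-70382066 on the plus strand. No stretch of 50 exon bases was shared between members. Thbs3 shared 318 exon bases, 6.59% of its exon length, with Mtx1 on the opposite strand, and Thbs1 shared 208 bases, 3.42%, with the non-coding gene Gm29233. The strand setting of the counting is not stated, so reads in these shared bases cannot be told apart.

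Promoters of 3 of the 5 genes were available from RefSeq (GRCm38.p6), and all 3 are shown; Thbs2, Thbs3 and Thbs4 were called lower in CD1530 at each of D1.5, D2.5 and D4. Each run is the 250 bases before the transcription start, 5′ to 3′ on the gene's strand: chr17:14694263-14694512 for Thbs2, chr3:89214930-89215179 for Thbs3 and chr13:92794819-92795068 for Thbs4. Capitals mark matches on either strand to 7 motifs. The general promoter motifs searched were the TATA box, spelled TATAAA, the CCAAT box, spelled as it is named, and the GC box, spelled GGGCGG. The E box, to which basic helix-loop-helix factors such as Scx bind, was searched as CANNTG. The core to which retinoic acid receptors bind was searched as AGGTCA, that of the hedgehog effectors GLI as CCACCC, and the SMAD box of TGF-beta signalling as CAGACA.
Thbs2: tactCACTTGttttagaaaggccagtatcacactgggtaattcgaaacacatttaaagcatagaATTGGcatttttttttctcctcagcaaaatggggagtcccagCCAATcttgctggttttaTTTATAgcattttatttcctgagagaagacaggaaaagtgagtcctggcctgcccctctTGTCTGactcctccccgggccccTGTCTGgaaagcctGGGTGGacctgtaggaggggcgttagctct
Thbs3: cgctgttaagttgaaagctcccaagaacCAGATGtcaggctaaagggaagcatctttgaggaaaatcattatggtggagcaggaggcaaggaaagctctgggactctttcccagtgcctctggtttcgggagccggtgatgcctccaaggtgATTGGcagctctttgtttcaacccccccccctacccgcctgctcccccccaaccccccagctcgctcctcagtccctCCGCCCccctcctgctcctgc
Thbs4: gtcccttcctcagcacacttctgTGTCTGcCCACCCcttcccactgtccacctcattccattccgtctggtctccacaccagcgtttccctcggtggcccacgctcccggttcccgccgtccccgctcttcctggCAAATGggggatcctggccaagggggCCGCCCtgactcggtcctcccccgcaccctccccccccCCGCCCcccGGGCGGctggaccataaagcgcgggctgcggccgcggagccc
The Thbs2 promoter held 1 TATA box match, 2 CCAAT boxes, 1 E box, 1 GLI core and 2 SMAD boxes. The Thbs3 promoter held 1 CCAAT box, 1 GC box and 1 E box. The Thbs4 promoter held 3 GC boxes, 1 E box, 1 GLI core and 1 SMAD box. The AGGTCA letters were in none of these windows. No matches overlapped. Of 32851 promoter windows of the same length, 12.4% held the TATA letters, 33.8% CCAAT, 32.7% the GC box, 66.2% the E box, 14% AGGTCA, 28.1% the GLI core and 17.1% the SMAD box. GC content was 46.8% for Thbs2, 58.8% for Thbs3 and 70.8% for Thbs4, beside a median of 52.4%. A match is a run of letters, not a binding site.

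Thbs4 changed most, from a few counts per library in PM to the highest fold of the family in AGN, followed by Thbs1, which rose strongly and almost equally in both conditions. Thbs2 was already abundant in PM, dipped, and then rose mainly in AGN. Thbs3 rose early to a modest level, and Comp stayed low, with group means of 0.598 to 5.59 CPM. Log2 fold changes are given with the standard error (SE) of edgeR's quasi-likelihood fit, and a gene was called at a Benjamini-Hochberg adjusted p under 0.05 over all 17120 genes. Since whole cultures were sequenced, fewer cells with a transcript and less of it per cell cannot be told apart. PM and the induced groups also differed in culture format, and this and the induction media cannot be told apart.

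**Figure D1:**
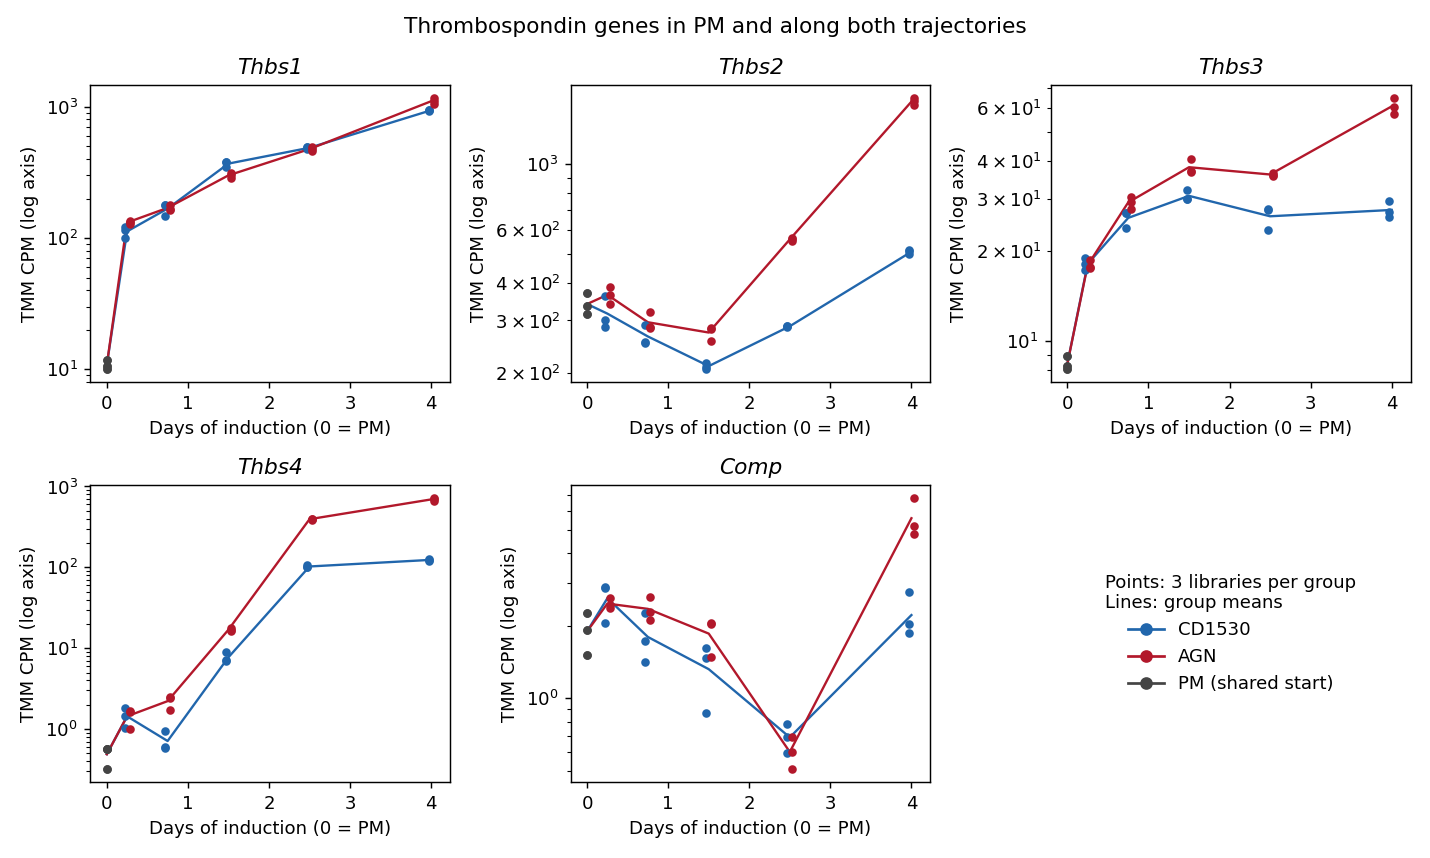
Level of each thrombospondin gene (TMM CPM, log axis) against days of induction, with 3 libraries per group as points and group means as lines; PM is the shared start of both conditions. Thbs1 runs together in both conditions, Thbs2, Thbs3 and Thbs4 separate with AGN above CD1530, and Comp is lowest at D2.5 in both. Points of the conditions are shifted slightly sideways.

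Thbs1, the family's activator of latent TGF-beta, rose by far the most within the first 0.25 days. In PM its libraries were at 11.7, 10.6 and 10.1 CPM. At D0.25 they were at 100.4, 121.9 and 114.8 CPM in CD1530 and at 135.1, 127 and 131.8 CPM in AGN, all about an order of magnitude above PM. The step was 3.38 ± 0.08 on the log2 scale in CD1530 (adjusted p = 3.26e-24) and 3.60 ± 0.08 in AGN (6.36e-25). The level then increased at every later step in both conditions, each step passing the test. Group means ran through 168 ± 18.7 and 170 ± 8.52 CPM at D0.75, 369 ± 18.8 and 300.3 ± 11.7 at D1.5 and 487 ± 12.0 and 476 ± 14.3 at D2.5 (CD1530 first, SD, n = 3). At D4 the libraries were at 934, 945 and 942 CPM in CD1530 and at 1097, 1157 and 1053 in AGN, without overlap. Against PM this was 86.9-fold in CD1530 (6.44 ± 0.08) and 101.8-fold in AGN (6.67 ± 0.09).

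The ligand moved Thbs1 little, and its sign depended on the time point. At D1.5 it was higher in CD1530, at 348, 382 and 377 CPM against 302, 311 and 288 in AGN, a difference of 0.30 ± 0.06 (adjusted p = 0.000362). At D4 it was lower in CD1530 by a factor of 1.17 (-0.23 ± 0.06, adjusted p = 0.0022). At D0.75 and D2.5 the libraries of the conditions overlapped and the differences were -0.02 ± 0.06 and 0.03 ± 0.06. At D0.25 the libraries did not overlap but the difference of -0.22 ± 0.06 did not pass (adjusted p = 0.0738). That call depended on the method. The difference passed with DESeq2 (adjusted p = 0.0294), with a likelihood ratio test (0.0363) and in a fit of the compared groups only (0.048). It also passed without CD1530 D0.25 replicate 2 (0.0214), whereas over the alternatives the adjusted p rose to as much as 0.417.

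Thbs2, whose product binds matrix metalloproteinases and shapes collagen fibrils, was the abundant thrombospondin of PM, with 370.3, 336 and 315 CPM. At D0.25 it had not changed by the test in either condition, with -0.11 ± 0.07 in CD1530 and 0.10 ± 0.07 in AGN. Without CD1530 D0.25 replicate 2, the first of these became a called change of -0.22 ± 0.06 (adjusted p = 0.00309). That library was the highest of its group, at 363 CPM beside 284 and 301. Over the alternatives the adjusted p of this change also rose, to as much as 0.682. Thbs2 then fell to 211 ± 5.18 CPM at D1.5 in CD1530, its lowest group, through steps of -0.25 ± 0.07 and -0.33 ± 0.07. The first step did not pass without the same library (adjusted p = 0.066). In AGN it fell by 0.30 ± 0.07 on the log2 scale to D0.75 and stood at 273 ± 15.2 CPM at D1.5.

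From D1.5 Thbs2 rose in both conditions and more steeply in AGN. At D2.5 the CD1530 libraries were at 285, 288.5 and 287 CPM and the AGN libraries at 554, 561 and 565. At D4 they were at 512, 501 and 515 CPM in CD1530 and at 1620, 1654 and 1569 in AGN, with no library of either condition near the other. The level in CD1530 was lower by a factor of 1.95 at D2.5 (-0.96 ± 0.07, adjusted p = 2.76e-11) and 3.17 at D4 (-1.67 ± 0.07, 1.76e-16). A smaller difference was already called at D1.5, at -0.37 ± 0.07 (adjusted p = 0.000288). At D0.25 the value was -0.21 ± 0.07 (adjusted p = 0.185) and at D0.75 -0.16 ± 0.07 (0.143). Each of these was called when replicate 2 of the CD1530 group of that time was left out (adjusted p = 0.00307 and 0.0383). Over the alternatives the adjusted p also rose, to 0.616 at D0.25 and 0.483 at D0.75. D4 lay above PM by 0.58 ± 0.07 in CD1530 and 2.25 ± 0.07 in AGN, so the net change over the course was 1.49-fold in CD1530 and 4.74-fold in AGN.

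Thbs3, a pentameric member, started at 8.09, 8.93 and 8.29 CPM in PM and rose about equally in both conditions at D0.25, to 18.1 ± 0.848 CPM in CD1530 and 18.0 ± 0.610 in AGN. These steps were 1.11 ± 0.08 (adjusted p = 2.82e-15) and 1.09 ± 0.08 (5.56e-15). It rose again at D0.75 and D1.5 in both, to 30.6 ± 1.22 and 38.2 ± 2.29 CPM. The step to D1.5 in CD1530 (0.25 ± 0.07) did not pass in a fit of the compared groups only (adjusted p = 0.0673). In CD1530 the rise ended there. The level fell slightly at D2.5 (-0.23 ± 0.07, adjusted p = 0.00597, but 0.0974 without CD1530 D2.5 replicate 2), and no further change was called to D4, at 0.07 ± 0.07.

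In AGN, Thbs3 stood at 36.1 ± 0.437 CPM at D2.5 and then rose by 0.76 ± 0.06 (adjusted p = 4.12e-14). The D4 libraries were at 26.0, 27.0 and 29.5 CPM in CD1530 and at 64.8, 60.5 and 57.6 CPM in AGN. The ranges were far apart, with CD1530 lower by a factor of 2.22 (-1.15 ± 0.06, adjusted p = 6.13e-19). Differences of the same sign were called at D1.5 (-0.32 ± 0.06, adjusted p = 0.000137) and D2.5 (-0.47 ± 0.07, 1.62e-07). At D0.75 the value was -0.17 ± 0.07 (adjusted p = 0.0598), and it passed when any of 3 single libraries was left out. These were CD1530 D0.75 replicate 1 (0.0333) or replicate 2 (0.0478), or AGN D0.75 replicate 3 (0.0478). Over the alternatives the adjusted p also rose, to as much as 0.302. Mtx1, which overlaps Thbs3, differed the other way at D4 (0.18 ± 0.07, adjusted p = 0.0256, a call lost with DESeq2 at 0.0602 and without any of 4 libraries).

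Thbs4, a thrombospondin of tendon and muscle matrix, was nearly silent in PM, with 12, 12 and 6 counts, or 0.574, 0.567 and 0.323 CPM. At D0.25 it rose 2.93-fold in CD1530, to 1.44 ± 0.392 CPM, and 2.91-fold in AGN, to 1.44 ± 0.371 (1.55 ± 0.27, adjusted p = 4.82e-06, and 1.54 ± 0.28, 6.33e-06). The conditions then moved in opposite directions. In CD1530 the D0.75 libraries were at 0.946, 0.591 and 0.597 CPM (21, 13 and 14 counts), a change of -1.03 ± 0.24 (adjusted p = 0.000592). In AGN they were at 1.72, 2.53 and 2.40 CPM (39, 52 and 43 counts), a rise of 0.60 ± 0.19 (adjusted p = 0.0101). The rise in AGN did not pass without AGN D0.25 replicate 3 (adjusted p = 0.115) or AGN D0.75 replicate 2 (0.0724). The difference between conditions at D0.75, -1.63 ± 0.22 (adjusted p = 4.33e-07), was kept in every alternative fit, and its libraries did not overlap.

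Thbs4 rose steeply after D0.75 in both conditions. At D1.5 its libraries were at 7.19, 9.04 and 6.93 CPM in CD1530 and at 16.5, 16.6 and 17.7 in AGN. At D2.5 they were at 101.5, 99.97 and 106 CPM in CD1530 and at 385, 396 and 401 in AGN, so 1 day raised the level 13.3-fold in CD1530 (3.73 ± 0.07) and 23.2-fold in AGN (4.54 ± 0.07). The rise then slowed, and more so in CD1530, at 0.27 ± 0.05 against 0.81 ± 0.05 in AGN. At D4 the libraries were at 120.4, 124.9 and 126 CPM in CD1530 and at 692, 716 and 668 in AGN. CD1530 was lower by a factor of 2.19 at D1.5 (-1.13 ± 0.09, adjusted p = 2.47e-13), 3.84 at D2.5 (-1.94 ± 0.05, 4.15e-28) and 5.59 at D4 (-2.48 ± 0.05, 5.55e-32). It was still 250.2-fold above PM in CD1530 at D4 (7.97 ± 0.12) and 1399-fold in AGN (10.45 ± 0.10), both from the 6 to 12 counts of PM.

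Comp, the pentameric protein of cartilage and tendon, was at the low end of the measured range throughout. Its PM libraries held 40, 48 and 28 counts, at 1.91, 2.27 and 1.51 CPM, and D0.25 was not called against PM, with 2.60 ± 0.482 CPM in CD1530 and 2.47 ± 0.113 in AGN. In CD1530 the D0.25 value (0.44 ± 0.21) passed when PM replicate 2 (adjusted p = 0.0397) or CD1530 D0.25 replicate 3 (0.0214) was left out. It also passed with scaling by library size only (0.037), whereas over the alternatives the adjusted p rose to as much as 0.243. Comp then declined, and its lowest groups were those of D2.5, at 0.688 ± 0.0962 CPM in CD1530 (14, 13 and 10 counts) and 0.598 ± 0.0895 in AGN (22, 10 and 13 counts). The step from D1.5 to D2.5 was -0.92 ± 0.30 in CD1530 (adjusted p = 0.0149) and -1.64 ± 0.27 in AGN (4.34e-06). The call in CD1530 was lost without CD1530 D1.5 replicate 1 (0.0514) or replicate 2 (0.103) or CD1530 D2.5 replicate 3 (0.0604). The earlier step in CD1530, -0.53 ± 0.21 from D0.25 to D0.75 (adjusted p = 0.0357), was lost in a fit of the compared groups only (0.0891) and without either of 2 libraries at each time, CD1530 D0.25 replicate 1 (0.119) or 2 (0.135) and CD1530 D0.75 replicate 2 (0.0838) or 3 (0.187).

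Between D2.5 and D4 Comp rose in both conditions, by 1.68 ± 0.28 in CD1530 (adjusted p = 2.31e-06) and 3.23 ± 0.23 in AGN (2.04e-15). The D4 libraries were at 1.87, 2.75 and 2.02 CPM in CD1530 and at 5.19, 4.82 and 6.77 in AGN. The conditions did not overlap, with CD1530 lower by a factor of 2.53 (-1.34 ± 0.20, adjusted p = 2.30e-07). In AGN the D4 level was 2.93-fold that of PM (1.55 ± 0.20, adjusted p = 2.80e-09), whereas in CD1530 the libraries overlapped those of PM (0.21 ± 0.22, adjusted p = 0.381). At D0.25, D0.75, D1.5 and D2.5 the conditions overlapped and no difference in Comp was called, with values of 0.07 ± 0.20, -0.40 ± 0.22, -0.51 ± 0.24 and 0.21 ± 0.35.

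The number of members called between conditions went from 0 at D0.25 to 5 of 5 at D4. It did not grow at every step, with 4 at D1.5 and 3 at D2.5, where Thbs1 was not called. At D0.25 none was called, beside 1.92% of all genes. Thbs1 and Thbs2 had an unadjusted p under 0.05 there, and DESeq2 and the likelihood ratio test each called 1 member. At D0.75 only Thbs4 was called, lower in CD1530 (18% of all genes were called, 10% lower). At D1.5 Thbs2, Thbs3 and Thbs4 were lower and Thbs1 was higher (26.9%). At D2.5 Thbs2, Thbs3 and Thbs4 were lower in CD1530 (40% called, 19.6% lower). At D4 all 5 were lower in CD1530, beside 46.6% of all genes called and 24% called lower. The median log2 fold change of the 5 at D4 was -1.34, beside -0.0186 over all genes. These calls at D1.5, D2.5 and D4 were the same in number under every alternative.

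**Figure D2:**
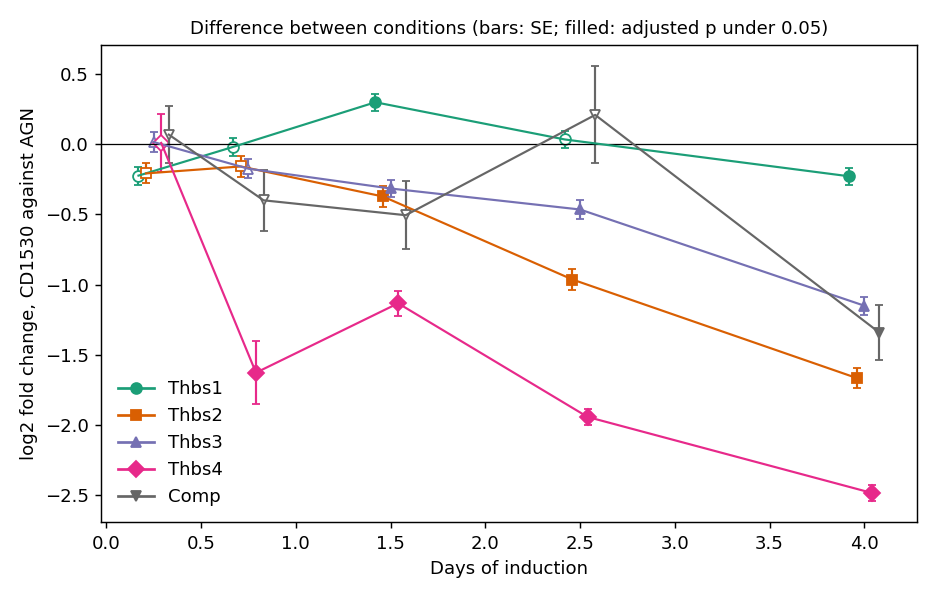
Log2 fold change of CD1530 against AGN at each time point (days of induction) for the 5 genes, with SE as bars and filled symbols where the adjusted p was under 0.05; symbols are shifted sideways to separate the genes. Thbs4 separates at D0.75 (-1.63), and Comp is called at D4 alone (-1.34).

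Whether the course over time depended on the ligand was tested as an interaction over all 5 time points, and it was called for 5 of 5 members (48.8% of all genes). The adjusted p was 3.69e-05 for Thbs1, 3.63e-12 for Thbs2, 8.20e-13 for Thbs3, 7.71e-15 for Thbs4 and 0.000491 for Comp. Taken step by step, the change in CD1530 differed from that in AGN for 1 member from D0.25 to D0.75, Thbs4 (4.82% of all genes), 1 from D0.75 to D1.5, Thbs1 (9%), 3 from D1.5 to D2.5, Thbs1, Thbs2 and Thbs4 (11.5%), and 5 from D2.5 to D4 (26.8%). The Thbs1 calls among these were lost from D0.75 to D1.5 without any of 4 libraries and in a fit of the compared groups only, from D1.5 to D2.5 without any of 9 libraries and with scaling by library size only, and from D2.5 to D4 without either of 2 libraries. Against PM, D4 was called higher for 4 members in CD1530 (83.2% of all genes called, 43.3% higher), all but Comp, and for 5 in AGN (82% called, 41.6% higher). At the first step 3 members rose in each condition, Thbs1, Thbs3 and Thbs4 (67.8% of genes called and 34.5% higher in CD1530, 68.1% and 35% in AGN). In CD1530 the later steps called 5 members from D0.25 to D0.75 (45.9%), 4 from D0.75 to D1.5 (34.2%), 5 from D1.5 to D2.5 (36.5%) and 4 from D2.5 to D4 (57.3%). In AGN they called 4 (43.7%), 3 (30.3%), 4 (42.1%) and 5 (59.4%).

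The make-up of the family turned over during induction. Levels of different genes were compared as CPM per kb of exon, summed over the 5. In PM Thbs2 made up 91.8% ± 0.464 of a sum of 52.9 ± 4.16 CPM per kb (SD, n = 3). By D1.5 Thbs1 led in both conditions, with 60.7% ± 1.23 of the sum in CD1530 and 48.4% ± 0.709 in AGN. Thbs1 kept the lead in CD1530 to D4, at 57.0% ± 0.305, followed by Thbs2 at 26.8% ± 0.394 and Thbs4 at 13.9% ± 0.233. In AGN Thbs4 led at D2.5 with 41.9% ± 0.391, and at D4 the sum was spread over Thbs2 (36.2% ± 0.305), Thbs4 (33.03% ± 0.0326) and Thbs1 (28.5% ± 0.381). The D4 sum was 272 ± 2.11 CPM per kb in CD1530 and 637 ± 22 in AGN. Thbs3 made up at most 7.77% and Comp at most 1.28% of the sum in any group. With the length of the longest transcript in place of the exon union, the leading gene was the same in all 11 groups.

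**Figure D3:**
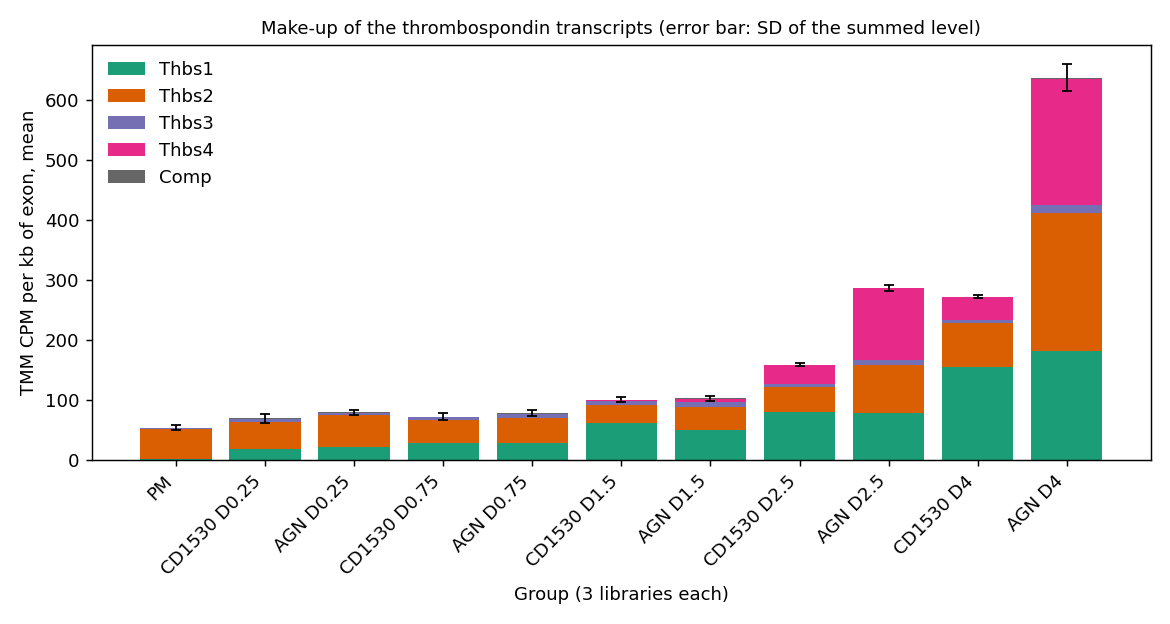
Mean level of each member per kb of exon (TMM CPM per kb, stacked) in the 11 groups, with the SD of the summed level over 3 libraries as the error bar. Thbs2 (orange) makes up nearly all of PM, Thbs1 (green) leads in CD1530 at D4, and Thbs2, Thbs4 (pink) and Thbs1 share AGN at D4.

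In the order of group means, each member has 10 pairs of neighbouring groups. The libraries of neighbours overlapped in 1 pair for Thbs4, 2 for Thbs1, 5 each for Thbs2 and Thbs3, and 8 for Comp. This count was not made over all genes, so whether it sets any member apart is not known. For Thbs1 the overlapping pairs were the conditions at D0.75 and at D2.5, so its order follows time. For Thbs2 the groups from CD1530 D0.75 to AGN D0.25, which include PM, were largely not separated. For Comp only AGN D4 at the top and the D2.5 pair at the bottom stood clear of their neighbours. Across the 11 group means, on the log2(CPM + 1) scale, the closest pair of members was Thbs1 with Thbs3 (r = 0.883) and the least alike was Thbs4 with Comp (r = -0.0425). These are descriptions over groups that share time.

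The partners that thrombospondins act with differed between conditions at D4 in both directions, except for the matrix partners, which were mostly lower in CD1530. Of 12 matrix partners tested (collagens, matrilins, fibronectin and aggrecan), 8 were lower and 1 was higher in CD1530, and the median was -1.62. Of all genes, 46.6% were called at D4 and 24% were called lower. The higher gene, Col12a1, was not called without CD1530 D4 replicate 1 or AGN D4 replicate 1. Acan, Col2a1, Col9a1 and Matn4, which are 4 of the 8 lower genes, are also in the list of cartilage markers given below, and Col1a1 is also in that of tendon markers. Acan, the cartilage proteoglycan, was at -5.53 ± 0.09 (4.67 CPM against 215) and Col9a3, a chain of type IX collagen to which Comp binds, at -4.50 ± 0.07 (16.9 against 383). At D2.5 the count was also 1 higher and 8 lower (19.6% of all genes lower). Against PM, all 12 were higher at D4 in both conditions, beside 43.3% of all genes in CD1530 and 41.6% in AGN. Matn1 was not analysed here.

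Of 13 receptors, 6 were higher and 4 lower in CD1530 at D4, with a median of 0.01. Itga3, an integrin subunit, was higher at 107 CPM against 39.6 (1.44 ± 0.07), and Sdc4, a heparan sulfate proteoglycan, was lower at 55.7 CPM against 93.4 (-0.74 ± 0.05). Of the receptors named above, Cd47 was lower in CD1530 (-0.39 ± 0.06) and Cd36, at about 8 CPM in both, was not called (-0.05 ± 0.11). Of 7 proteases, 2 were higher and 4 lower (median -0.20), with Adamts1 at 123 CPM against 62.5 (0.98 ± 0.06) and Mmp9 at 84.7 against 50.1 (0.76 ± 0.04). Of 14 genes of TGF-beta activation and output, 8 were higher and 5 lower (median 0.19), among them Ltbp2, a latent TGF-beta binding protein, at 1.09 ± 0.08, and Tgfbi, a TGF-beta induced matrix gene, at -1.33 ± 0.03. These lists stand beside a median of -0.0186 over all genes, of which 46.6% were called at D4 and 24% were called lower in CD1530. In each condition 13 of these 14 TGF-beta genes were higher at D4 than in PM, beside the same 43.3% and 41.6% of all genes.

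**Figure D4:**
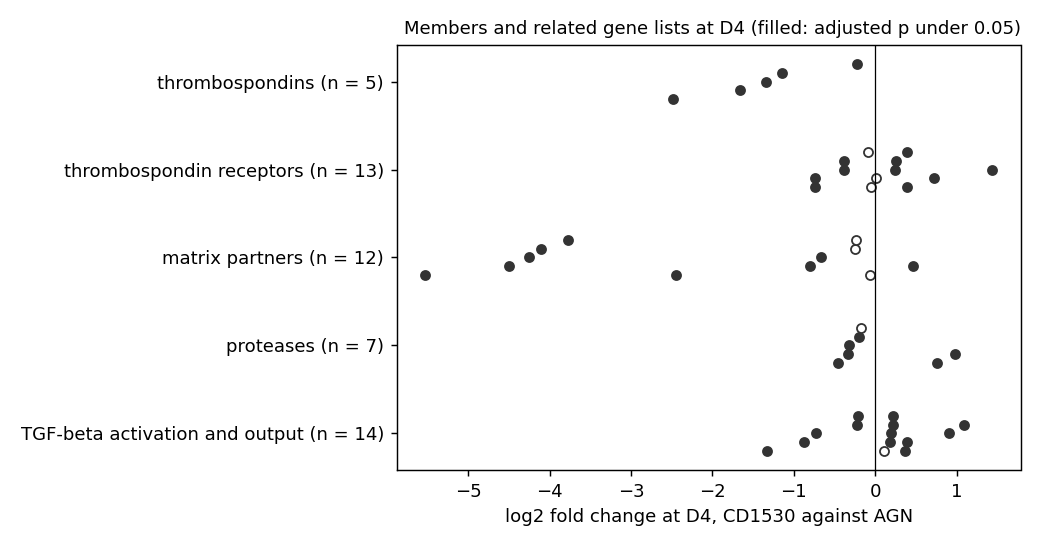
Log2 fold change of CD1530 against AGN at D4 for the 5 thrombospondins and for related gene lists, 1 point per gene, filled where the adjusted p was under 0.05; points are spread vertically only for legibility. All 5 thrombospondins lie below 0, as do 8 of the called matrix partners, while receptors, proteases and TGF-beta genes lie on both sides.

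Markers of the cell types that could hold these transcripts were read beside the D4 result. Their counts stand beside 46.6% of all genes called at D4 and 24% called lower in CD1530. All 8 cartilage markers were lower in CD1530, with a summed level of 247 to 254 CPM against 3170 to 3300 in AGN, and none was at 0. Of 8 tendon markers, 5 were lower and 1 higher, with sums of 22700 to 23500 CPM against 29300 to 30900. Both sums thus moved the same way as the 5 thrombospondins, and their part in the result was not tested. Most of the cartilage sum was Col2a1, at 145 CPM against 2497. The largest part of the tendon sum was Col1a1, at 9785 CPM against 11520, which was not called. Mkx was not called either, and Tnc was the marker higher in CD1530. Muscle markers summed to 13.4 to 16 CPM in CD1530 and 14.7 to 15.8 in AGN, with 1 of 7 higher and 3 lower, and Myod1 at 0 in each CD1530 library. Smooth muscle markers (1 of 5 higher, 1 lower) summed to 696 to 712 and 671 to 689 CPM. Most of that was Acta2, at 664 CPM against 647, which was not called. Endothelial markers (2 of 7 higher, 2 lower) summed to 154 to 170 and 145 to 154 CPM. Without CD1530 D4 replicate 2 or 3 or AGN D4 replicate 2, 1 endothelial marker was lower. Neural markers were higher in CD1530 for 6 of 7 and lower for 1, at 154 to 167 against 83.7 to 85.9 CPM. Of the PM markers 3 of 6 were higher and none lower, at 96.7 to 104 against 78.7 to 83 CPM. Most of that sum was Meox1, at 73.7 CPM against 65.4. Tbx6 (0.285 against 0.36 CPM), Msgn1 (0.0183 against 0.0417) and Hes7 (0.684 against 0.709) were not called. In PM itself the sum was only 48.2 to 48.7 CPM, so it is no measure of remaining PM cells. The only megakaryocyte marker analysed, Itga2b, was near 2 CPM in both and was not called.

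Nearest protein-coding genes beside the members were read to see whether neighbours changed with it. Smoc2, a secreted calcium-binding matrix protein whose gene lies 260709 bp from Thbs2, was lower in CD1530 at D4, at 49.0 ± 2.57 CPM against 230 ± 4.94 (-2.23 ± 0.06, adjusted p = 3.63e-30), and stood at 1.07 CPM in PM. The other neighbours given here differed by less than 1 on the log2 scale. Those of Thbs4, itself 5.59-fold lower in CD1530, were slightly higher there, Serinc5 at 0.20 and Mtx3 at 0.29 ± 0.10, the latter not called without either of 2 libraries (adjusted p = 0.0505 and 0.055). Crtc1, whose gene ends 288 bp from Comp, was at -0.07, and Upf1 on its other side at -0.14. No difference was called for Muc1, Wdr27 or Rasgrp1. Fsip1, 3290 bp from Thbs1, was at 0.81 ± 0.30 with about 1 CPM in both conditions, a call that was lost without any of 3 libraries.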

How the data were processed

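The authors aligned the reads with STAR and assigned them to genes with featureCounts, per the labels and the study's methods, and deposited a table of raw counts per gene for 33 libraries, which had been filtered on low expression. Which annotation release was used, whether strand was used and how multiply aligned reads were treated are not given in the sources used here. All 33 libraries entered 1 fit in R 4.3.3 with edgeR 4.0.16, with TMM normalization, a mean for each of 11 groups and the robust quasi-likelihood F test, as the study had used edgeR. Benjamini-Hochberg adjustment was made over 17120 genes within each contrast, with a threshold of 0.05. The edgeR filter on low expression removed no gene. All 17120 identifiers matched GENCODE M21, which gave positions and exon length. SE is the size of the log2 fold change divided by the square root of its F value.

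Members, gene lists and tests were chosen with earlier results of these data known, and the tests of each step between conditions were added after the data were seen. Genes named beside the members were the 2 with the largest called D4 difference in each family list (mean of at least 50 counts), the nearest protein-coding gene on each side and Mtx1, the 3 genes most alike in pattern, and 5 checks of the labels. The result of 1 neighbouring gene is not reported here. Cd36 and Cd47 are named as the receptors of the background, outside that rule. Alternatives were DESeq2 1.42.0 as a test and its size factors, library size only, no filter, a filter at 1 CPM in 3 libraries, a likelihood ratio test, the compared groups only, a replicate block, another gene length and leaving out single libraries. The fit was also run on simulated counts, whose outcome is not given here. These were drawn independently for each library with the fitted dispersions, so they cannot speak to technical or shared structure of the replicates. Replicate columns were compared, and 0 pairs were identical. Totals were 17116084 to 38120841 counts per library, with a median of 19899242. The biological coefficient of variation was 4.68%, and depth limits precision for Thbs4 before D1.5 and for Comp throughout.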

Additional observations from a re-analysis of the deposited data

Results flagged for a closer look

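All 5 thrombospondins are listed here because the effect of the ligand differed between time points by a test of that difference. Over all 5 time points the interaction gave an adjusted p (edgeR) of 3.69e-05 for Thbs1, 3.63e-12 for Thbs2, 8.20e-13 for Thbs3, 7.71e-15 for Thbs4 and 0.000491 for Comp. The steps between time points, tests added after the data were seen, are given as the log2 change in CD1530 less that in AGN. They begin at D0.25 and so do not cover a difference that arose between PM and D0.25.

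Of these steps, the first called was that of Thbs4, with -1.64 ± 0.31 from D0.25 to D0.75 (adjusted p = 0.000489, with 4.82% of all genes called). Thbs1 followed with 0.32 ± 0.09 from D0.75 to D1.5 (adjusted p = 0.0202; 9% called), the only positive value among these calls, and it was lost without any of 4 libraries (0.0557 to 0.0688) and in a fit of the compared groups only (0.0943). From D1.5 to D2.5 (11.5% called) the values were -0.27 ± 0.09 for Thbs1, -0.59 ± 0.10 for Thbs2 and -0.81 ± 0.11 for Thbs4. The Thbs1 value was lost without 9 of the 12 libraries of these groups and with scaling by library size only (0.0702).

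From D2.5 to D4 (26.8% called) the value was negative for all 5 members: -0.26 ± 0.08 for Thbs1, -0.70 ± 0.10 for Thbs2, -0.69 ± 0.09 for Thbs3, -0.54 ± 0.07 for Thbs4 and -1.55 ± 0.40 for Comp. The Thbs1 value did not pass without AGN D2.5 replicate 2 (adjusted p = 0.0518) or AGN D4 replicate 2 (0.0643), and the Comp value rests on 10 to 22 counts per library at D2.5.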

How the results depend on the processing

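Across the alternatives 1721 member values kept their direction and side of the threshold, 15 gained and 30 lost a call, and 14 uncalled values turned sign. The number of members called at D0.25 between conditions was 0, but 1 with DESeq2, with the likelihood ratio test and with the compared groups only, and 0 to 2 with a library left out; at D0.75 it was 1, and 1 to 3 with a library left out. From D0.25 to D0.75 in CD1530 5 were called, and 3 to 5 with a library left out. For the difference between conditions in a step, 1 was called from D0.25 to D0.75 (1 to 2 with a library left out) and 1 from D0.75 to D1.5 (0 with the compared groups only, 0 to 1 with a library left out). Over all genes, a fit of the compared groups only called 804 at D0.25 (329 with all libraries) and 1236 at D0.75 (3076), 5185 from D0.25 to D0.75 in CD1530 (7853) and 2792 from D0.75 to D1.5 in CD1530 (5854), and for the steps between conditions 439 (826) and 649 (1541). With a library left out the D0.25 count was 196 to 276 and that of the D0.25 to D0.75 step between conditions 662 to 1301. The cause was not tested.

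The values that turned sign were all uncalled. Scaling by library size only gave -0.0227 for Thbs3 from D2.5 to D4 in CD1530 (0.07 with TMM). With a library left out, this value ran from -0.002536 to 0.1129. At D0.25 between conditions the range was -0.01871 to 0.04785 for Thbs3, -0.1959 to 0.1794 for Thbs4 and -0.01987 to 0.2208 for Comp. At D0.75 it was -0.07179 to 0.06991 for Thbs1. For the difference between conditions in a step it was -0.02115 to 0.1613 for Thbs2 from D0.25 to D0.75 and -0.3003 to 0.1425 for Comp from D0.75 to D1.5. For Wdr27, CD1530 against AGN at D4, it was -0.4024 to 0.01472.

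Same-numbered libraries did not deviate together by the rule used: in 0 of 17 comparisons did every pair correlate over 0.1 (range -0.129 to 0.199). The closest was CD1530 D0.75 against D0.25, at 0.199, 0.0753 and 0.134. Over all 55 pairs of groups the range was -0.292 to 0.235, and 11 of 33 libraries correlated best with their own number. With the replicate number as a block the members called at D4 between conditions were again 5, and no member's call changed.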

Other observations

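The genes whose group means followed each thrombospondin most closely are given as a description, by Pearson's r of log2(CPM + 1) over the 11 groups, which share time and libraries. Thbs1 was followed by Ndst1, a heparan sulfate sulfotransferase (r = 0.9966, 50.2 to 174 CPM), Psd3 (0.9948) and Bmpr2, a BMP receptor (0.9947). Thbs2 was followed by Vstm2a (0.9742), Gas6, a secreted ligand of TAM receptors (0.9701, 32.9 to 330 CPM), and Itgbl1 (0.9527). For Thbs3 these were Bmp5, a BMP ligand (0.9828), Wipf1 (0.9824) and Col26a1, a collagen chain (0.9811, 30 to 588 CPM).

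Thbs4 was matched by Dock4 (0.9839), Cpa4, a carboxypeptidase (0.9778, 0.0801 to 11.4 CPM), and Tpd52l1 (0.9763). Comp, at low counts, had the loosest matches: Xpa, a DNA repair gene (0.9705), Psap, a lysosomal protein precursor (0.9198), and H2-T23 (0.8954). AGN D4 was the highest group for 14 of these 15 genes, and CD1530 D4 for Bmpr2. It was also the highest group of every thrombospondin, so this follows largely from how the genes were picked. Only genes with a highest group mean of at least 5 CPM were considered, which some met through their high groups alone.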
